A study of Mus musculus with 4 samples.

Results

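The genes described here encode the MHC class II molecules of the mouse and the proteins that load them: the classical chains H2-Aa, H2-Ab1 and H2-Eb1, the invariant chain Cd74, the transcriptional coactivator Ciita, the peptide exchange factor DM (H2-DMa, H2-DMb1, H2-DMb2) and its inhibitor DO (H2-Oa, H2-Ob). They were chosen by symbol, and all 10 were found among the 53379 gene identifiers of the count table. RNA was sequenced from tumour-associated macrophages, sorted as positive for CD45, CD11b and F4/80 from tumours of the mouse colon carcinoma model MC38 at day 21 after implantation. The hosts ate either a high-fat or a control diet, with 2 mice and 1 library per mouse on each, and both groups carried the same tumour. The sources used here do not give strain, age, sex or length of feeding. The question is whether the diet of the host goes with a difference in the transcripts for antigen presentation by these cells.

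A class II molecule is a pair of an alpha and a beta chain that shows peptides of ingested proteins to CD4 T cells. Cd74 holds newly made pairs together and blocks the peptide groove on the way to the endosome, where cathepsins cut it down and DM exchanges the last fragment for an antigenic peptide. Ciita binds no DNA itself but is recruited to a promoter module of class II genes by the RFX, CREB and NF-Y factors. In macrophages, interferon-gamma induces it, in part through IRF1. Tumour macrophages are often divided into populations of high and of low class II.

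The module that Ciita acts through could be read in the promoters. It is shown to make visible the sequences that class II genes share near their RefSeq starts. RefSeq windows (GRCm38.p6, from 250 bases before to 50 bases after the gene's start) were matched for 7 of the 10 genes, with 8 windows, and H2-Ab1, Cd74 and Ciita had no entry. The windows were searched on both strands for NNAAC, the end of the X box bound by RFX, followed after 15 to 35 bases by TGATTGG, which contains the inverted CCAAT sequence of the Y box bound by NF-Y. This pattern stood in the windows of 6 of the 7 genes and in 1.8% of all 32851 windows. The stricter form GNAAC then TGATTGG stood in 5 of the 7 and in 0.569% of all windows, and GCAAC then TGATTGG in 4 of the 7 and 0.204%. Neither window of H2-DMa held the pattern. The patterns were chosen with these sequences in view, and a match describes letters only. The stretches below are written 5′ to 3′ on the strand of the gene, with the NNAAC run and TGATTGG in capitals.
H2-Aa: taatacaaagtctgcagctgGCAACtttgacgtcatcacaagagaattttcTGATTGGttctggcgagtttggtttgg
H2-Eb1: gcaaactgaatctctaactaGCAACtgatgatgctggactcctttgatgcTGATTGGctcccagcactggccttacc
H2-DMb1: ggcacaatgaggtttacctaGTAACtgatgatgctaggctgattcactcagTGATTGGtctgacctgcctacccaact
H2-DMb2: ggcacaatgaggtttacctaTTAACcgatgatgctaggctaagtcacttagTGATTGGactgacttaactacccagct
H2-Oa: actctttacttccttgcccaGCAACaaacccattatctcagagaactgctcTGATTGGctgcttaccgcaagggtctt
H2-Ob: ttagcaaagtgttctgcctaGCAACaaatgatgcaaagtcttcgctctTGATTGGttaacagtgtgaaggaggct

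The stretch of H2-Aa lies at chr17:34287847-34287924 on the minus strand. The others lie on the plus strand, at chr17:34305756-34305832 for H2-Eb1, chr17:34153077-34153154 for H2-DMb1 and chr17:34145106-34145183 for H2-DMb2. The stretch of H2-Oa lies at chr17:34092283-34092360 and that of H2-Ob at chr17:34238798-34238872. RefSeq starts can differ from those of the gene models whose positions are given below. The stretches of H2-DMb1 and H2-DMb2 lie inside their gene models, which start at 34153072 and 34143307. That of H2-Oa runs past the start of its model at 34092340. In H2-Aa, H2-DMb1, H2-DMb2 and H2-Oa the runs were 26 bases apart, in H2-Eb1 25 and in H2-Ob 23.

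Libraries held 34148682 to 37159552 counts, and counts of the 10 genes ran from 138 for H2-Oa to 384993 for Cd74. Levels are in CPM, counts relative to the total of the library, with library sizes adjusted by TMM, a method that assumes most genes do not differ. Differences are log2 fold changes, high-fat minus control diet, with their standard error (SE) from edgeR's quasi-likelihood test, adjusted over all 18422 genes tested, and a gene is called at an adjusted p below 0.05. With bulk RNA, fewer cells expressing a gene and less RNA per cell cannot be told apart.

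All 10 genes passed the filter on low counts, and edgeR called 0 of the 10, against 10.5% of all tested genes (2.61% higher and 7.91% lower). At an unadjusted p below 0.05 there was 1 of 10, Ciita, against 31.3% of all genes. DESeq2 called 1 of 10, Ciita, beside 14.2% of all genes, and had 3 of the 10 at an unadjusted p below 0.05. With limma's voom 0 of 10 were called, beside 9.01% of all genes, and 1 was at an unadjusted p below 0.05. The share of all genes at that unadjusted p was not computed for DESeq2 or voom. The log2 fold change was negative for 9 of the 10 genes, with a median of -0.39, beside 49.6% of all tested genes with a negative value and a median over all of 0.005. Between the diets, levels did not overlap for 5 genes, Ciita, H2-Ab1, Cd74, H2-DMa and H2-Ob, each lower on the high-fat diet, where 31.6% of all tested genes were lower without overlap, 32.2% higher and 63.8% either. Without control-diet mouse 2, edgeR called 4 of the 10, H2-Ab1, Ciita, H2-DMb2 and H2-Oa, all lower, where that fit called 23.3% of all genes and 13.2% as lower. Without control-diet mouse 1 the median log2 fold change was -0.14.

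Mice on the same diet also differed. In high-fat-diet mouse 1, 8 of the 10 genes were higher than in mouse 2, with a median log2 ratio of 0.34 against 0.02 over all tested genes. In control-diet mouse 1, 9 of the 10 were higher than in mouse 2, with a median log2 ratio of 0.29 against -0.01 over all. The median difference between the diets, -0.39, was thus close in size to the median difference within each diet. Summed over the 10 genes, the level was 23410 and 18218 CPM on the high-fat diet and 26323 and 22336 CPM on the control diet. Between the diets the sums overlapped.

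**Figure D1:**
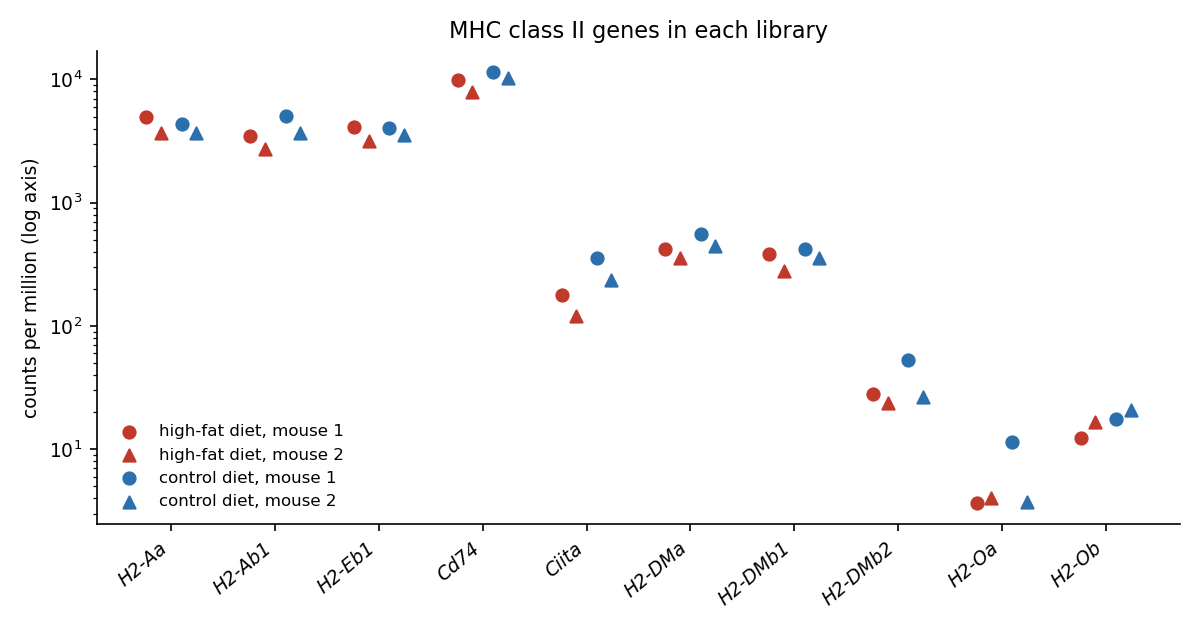
Level of each class II gene in each library, in CPM on a log axis, with 1 point per mouse (red for high-fat diet, blue for control diet, circle for mouse 1 and triangle for mouse 2). Ciita is lower in both high-fat-diet libraries, at 180 and 121 CPM, than in both control-diet libraries, at 356 and 236 CPM, while the points of H2-Aa and H2-Eb1 interleave.

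Ciita, the coactivator, had the smallest p of the 10. It lies on chromosome 16 from 10480059 to 10528418 (GRCm38). Its level was 180 and 121 CPM in high-fat-diet mice 1 and 2 and 356 and 236 CPM in control-diet mice 1 and 2. Both high-fat-diet libraries lay below both control-diet libraries, and the gap between 180 and 236 CPM was smaller than the gap between the control-diet mice. The log2 fold change was -0.97 (SE 0.27, edgeR adjusted p = 0.0718), a level 1.97-fold higher on the control diet, with an unadjusted 95% interval of -1.64 to -0.31.

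The call of Ciita turned on the setting. DESeq2 gave an adjusted p of 0.00672, edgeR without a filter 0.0248, scaling on macrophage genes 0.0271, edgeR with the mouse number as a block 0.0174, and edgeR without control-diet mouse 2 0.00864. The other 7 alternatives did not call it, and over all 12 the adjusted p ran from 0.00672 to 0.272 and the log2 fold change from -1.27 to -0.65. Without high-fat-diet mouse 2 the log2 fold change was -0.70 and the adjusted p 0.272. Ciita is transcribed from several promoters that differ between cell types, and counts per gene do not separate them. Dexi, on the opposite strand, overlaps 25888 bases of the gene model, and its level was 22 to 24.1 CPM on the high-fat and 23.4 to 32.2 CPM on the control diet.

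None of the 3 classical chain genes was called. H2-Aa encodes the alpha chain and H2-Ab1 the beta chain of the I-A molecule, and H2-Eb1 encodes the beta chain of the I-E molecule. H2-Aa (chromosome 17, 34282744 to 34287823) had 4949 and 3684 CPM on the high-fat and 4356 and 3673 CPM on the control diet. The highest and the second lowest of these values both belonged to high-fat-diet mice. Its log2 fold change was 0.10 (SE 0.21, adjusted p = 0.768), with a 95% interval of -0.41 to 0.62, so a change of up to 1.54-fold upwards is within it.

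H2-Eb1 (chromosome 17, 34305867 to 34316674) had 4130 and 3145 CPM on the high-fat and 4027 and 3553 CPM on the control diet. Here too the libraries of the diets overlapped, with both the highest and the lowest value on the high-fat diet. Its log2 fold change was -0.06 (SE 0.20, adjusted p = 0.866), with a 95% interval of -0.55 to 0.43. The sign of both values is not fixed: that of H2-Aa turned negative without control-diet mouse 2 (-0.01), without high-fat-diet mouse 1 (-0.11) and with scaling on macrophage genes (-0.04), and that of H2-Eb1 turned positive without control-diet mouse 1 (0.04), without high-fat-diet mouse 2 (0.15) and on total counts (0.01).

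H2-Ab1 (chromosome 17, 34257689 to 34269419) had 3482 and 2712 CPM on the high-fat and 5074 and 3669 CPM on the control diet. Both high-fat-diet libraries were below both control-diet libraries, with 3482 and 3669 CPM the nearest values. Between the diets its log2 fold change was -0.50 (SE 0.23, adjusted p = 0.198). Without control-diet mouse 2 it was -0.71 and called (adjusted p = 0.0416), and without control-diet mouse 1 it was -0.24.

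Ratios of counts within a library need no scaling between libraries. H2-Ab1 to H2-Aa was 0.703 and 0.736 in the high-fat-diet and 1.16 and 0.999 in the control-diet libraries. The mice of the high-fat diet were close together, at 0.72 ± 0.0231 (SD, n = 2), and apart from those of the control diet, at 1.08 ± 0.117 (SD, n = 2), so the ratio on the high-fat diet was 0.665 times that on the control diet. H2-Eb1 to H2-Aa was 0.834 and 0.854 against 0.924 and 0.967, again lower in both high-fat-diet libraries. An exact permutation test of 2 mice against 2 cannot give a p below 0.333, so these ratios were not tested. Of the 7 ratios computed, 5 did not overlap between the diets and 2 overlapped. Those 5 all have H2-Aa in the divisor, alone or in the classical sum, so they are not separate observations. H2-Aa was the only one of the 10 genes with a positive log2 fold change. Of single genes 63.8% did not overlap, and no such share was computed for ratios.

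Ciita was set against the sum of the 3 classical genes after its values had been seen. That ratio was 0.0143 and 0.0127 in the high-fat-diet and 0.0264 and 0.0217 in the control-diet libraries, and 0.562 times as high on the high-fat diet. It adds no evidence independent of the Ciita values. The classical sum itself was 12561 and 9541 CPM on the high-fat and 13456 and 10895 CPM on the control diet, and these values overlapped.

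**Figure D2:**
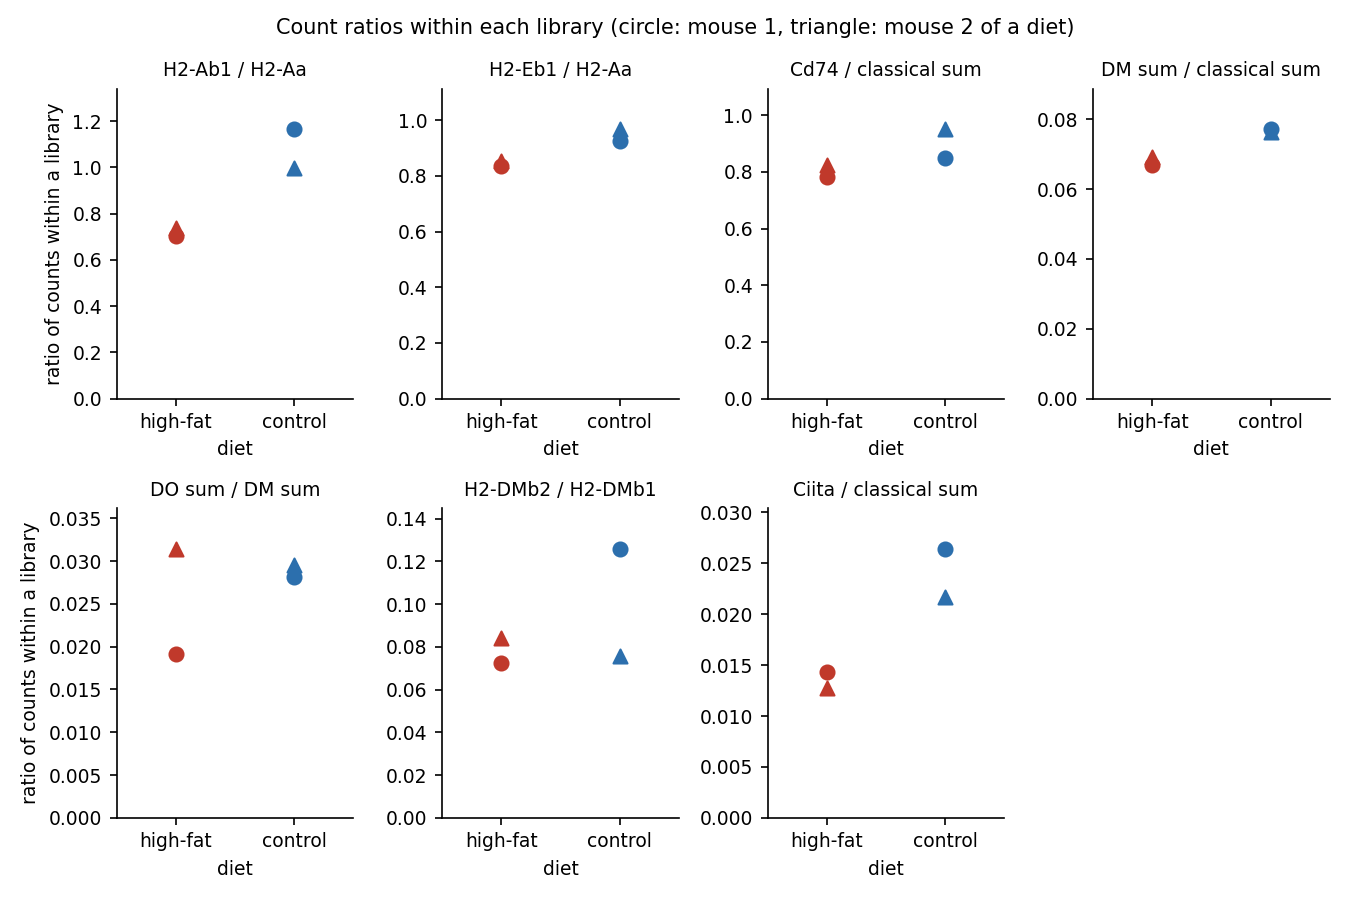
All 7 ratios of counts within a library, by diet, 1 point per mouse (circle for mouse 1, triangle for mouse 2), with each vertical axis from 0 and the classical sum being H2-Aa, H2-Ab1 and H2-Eb1. The points of the diets overlap for DO to DM and for H2-DMb2 to H2-DMb1 and lie apart in the other 5 panels, of which Ciita was added after its values were seen.

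Cd74, the invariant chain, was the most abundant of the 10. It lies on chromosome 18 from 60803848 to 60812652, apart from the other genes. Its level was 9814 and 7874 CPM on the high-fat and 11444 and 10350 CPM on the control diet. The libraries did not overlap, but the nearest values, 9814 and 10350 CPM, were closer to each other than the mice of either diet were. The log2 fold change was -0.30 (SE 0.19, adjusted p = 0.328), with a 95% interval of -0.77 to 0.17. Cd74 to the sum of the classical genes was 0.781 and 0.825 against 0.85 and 0.95.

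None of the DM genes was called, and 2 of the 3 overlapped between the diets. H2-DMa, the alpha chain of DM (chromosome 17, 34119541 to 34139101), had 424 and 356 CPM on the high-fat and 563 and 450 CPM on the control diet. The libraries did not overlap, and the log2 fold change was -0.37 (SE 0.19, adjusted p = 0.223). Its gene model overlaps 3094 bases of Brd2, a bromodomain gene on the opposite strand that fell, with 384 and 401 against 900 and 897 CPM (log2 fold change -1.20, adjusted p = 0.0142). The library kit keeps the strand, but the sources used here do not say whether counting used it, and what Brd2 reads may add to H2-DMa was not tested.

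H2-DMb1 and H2-DMb2 encode closely related beta chains and lie 1516 bases apart. Of all 50-base stretches of their annotated transcripts, 22.7% of those of H2-DMb1 and 21.2% of those of H2-DMb2 occur in the other gene, so reads could have been split between them or left out. H2-DMb1 (chromosome 17, 34153072 to 34160230) had 386 and 282 CPM on the high-fat and 422 and 354 CPM on the control diet, which overlap (log2 -0.22 ± 0.21 SE, adjusted p = 0.513). Its sign turned positive without high-fat-diet mouse 2 (0.02).

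H2-DMb2 (chromosome 17, 34143307 to 34151555) had 28 and 23.6 CPM on the high-fat and 53.1 and 26.8 CPM on the control diet. Control-diet mouse 1 alone stood apart, and the other 3 libraries lay together. The log2 fold change was -0.63 (SE 0.32, adjusted p = 0.23), -0.05 without control-diet mouse 1 and -1.04 (adjusted p = 0.00438) without control-diet mouse 2. With the counts of both beta chain genes summed, the log2 fold change was -0.25 (adjusted p = 0.455). The summed DM counts relative to the classical sum were 0.0668 and 0.0693 in the high-fat-diet and 0.0771 and 0.0762 in the control-diet libraries, lower by 0.888 times on the high-fat diet, or 0.913 times when counts were taken per kb of exon.

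DO, which holds DM back and is best known from B cells, thymic epithelium and some dendritic cells, was at the low end of the 10. H2-Oa (chromosome 17, 34092340 to 34095234) had 3.69 and 4.01 CPM on the high-fat and 11.5 and 3.76 CPM on the control diet. As with H2-DMb2, control-diet mouse 1 stood alone and mouse 2 lay among the high-fat-diet values. The log2 fold change was -0.98 (SE 0.50, adjusted p = 0.234), 0.04 without control-diet mouse 1 and -1.57 (adjusted p = 0.00256) without control-diet mouse 2.

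H2-Ob (chromosome 17, 34238903 to 34254414) had 12.3 and 16.8 CPM on the high-fat and 17.7 and 20.8 CPM on the control diet. It was the only one of the 10 genes that was higher in mouse 2 than in mouse 1 of both diets. Its log2 fold change was -0.40 (SE 0.21, adjusted p = 0.245). The summed DO counts relative to DM were 0.0191 and 0.0314 against 0.0281 and 0.0296, which overlap, as did H2-DMb2 to H2-DMb1, at 0.0725 and 0.084 against 0.126 and 0.0757.

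**Figure D3:**
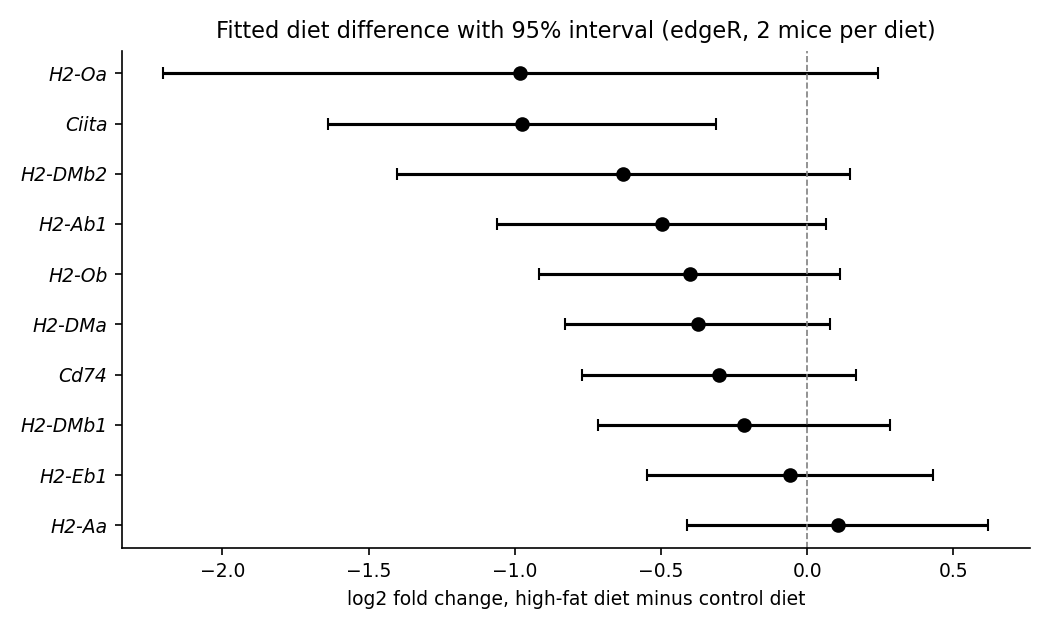
Log2 fold change of each class II gene, high-fat minus control diet, as a point with the unadjusted 95% interval of edgeR's test, ordered by size. The interval of Ciita (-1.64 to -0.31) is the only one of the 10 that leaves out 0, H2-Aa (0.10) is the only point above 0, and H2-Oa has the widest interval.

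Per kb of exon, the level averaged over the 4 libraries put Cd74 first with 5879 CPM per kb, followed by H2-Eb1 (1910), H2-Ab1 (1454) and H2-Aa (1097). Over the libraries Cd74 ranged from 4690 to 6816 CPM per kb, above every value of the classical chains. The ranges of H2-Eb1 (1618 to 2125), H2-Ab1 (1056 to 1976) and H2-Aa (967 to 1303) overlapped from neighbour to neighbour. H2-DMb1 (215) and H2-DMa (130) did not overlap, while Ciita (23.4) overlapped H2-DMb2 (18.8), and H2-Oa (4.07) overlapped H2-Ob (3.14). With the longest transcript as the length in place of all exons, H2-Ab1 passed H2-Eb1 and H2-Ob passed H2-Oa.

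The 8 class II genes of chromosome 17 lie within 224 kb, among other genes. Of 8 neighbours tested, 3 fell, 0 rose and 5 were not called, beside 7.91% of all tested genes called lower and 2.61% higher. Those that fell were Brd2, Btnl2, a butyrophilin-like gene (0.881 and 1.22 against 3.14 and 2.77 CPM, log2 fold change -1.49, adjusted p = 0.0416), and H2-Ea-ps, the alpha chain partner of H2-Eb1. H2-Ea-ps had 2 and 0 counts on the high-fat and 22 and 15 counts on the control diet, a ratio of 0.0496 with an exact 95% interval of 0.0058 to 0.192 that covers counting error only (edgeR adjusted p = 0.0454). In mice of the b haplotype, such as C57BL/6, this gene lacks a working promoter and I-E does not reach the surface.

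H2-Eb2, which starts 8990 bases past the 3′ end of H2-Eb1, had 0.347 and 0.313 against 2.13 and 0.941 CPM (adjusted p = 0.0536). Tap2 and Tap1, the subunits of the peptide transporter of class I presentation, had log2 fold changes of -0.63 (adjusted p = 0.0786) and -0.57 (adjusted p = 0.115). Both lie between H2-DMb1 and H2-Ob. Leaving out high-fat-diet mouse 1 or mouse 2 ended the calls of Brd2 and Btnl2, in fits that called fewer of all genes than the main fit. The log2 fold changes were then -1.15 and -1.21 for Brd2 and -1.25 and -1.72 for Btnl2. The call of H2-Ea-ps was lost without high-fat-diet mouse 1 or mouse 2 (log2 fold change -7.28 and -3.23) and without control-diet mouse 1 (-3.77).

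**Figure D4:**
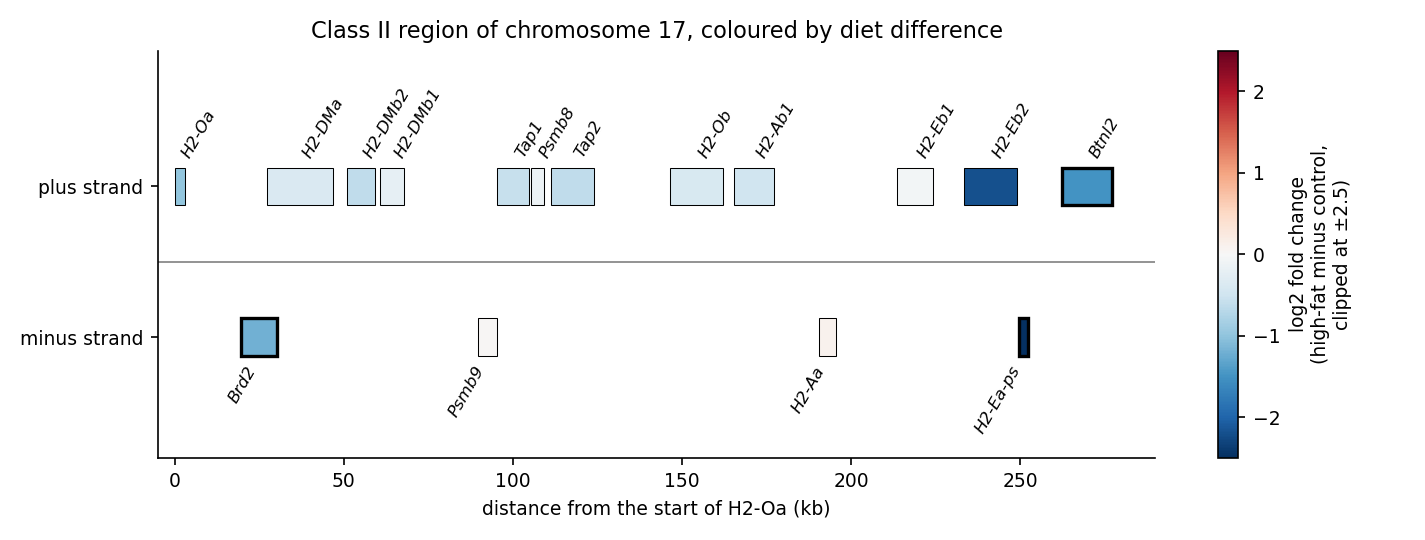
Class II region of chromosome 17, drawn to scale in kb from the start of H2-Oa, with genes of the plus strand above and of the minus strand below the line. Colour gives the log2 fold change, high-fat minus control diet (blue is lower on the high-fat diet, clipped at 2.5 in size), and thick outlines mark the 3 called genes, Brd2, Btnl2 and H2-Ea-ps. The class II genes other than H2-Oa and H2-DMb2 are pale, and the darker blue lies in H2-Eb2, H2-Ea-ps, Btnl2 and Brd2.

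Of 12 tested genes listed from the interferon-gamma receptor to Ciita, 2 fell, 0 rose and 10 were not called. Over all tested genes, 7.91% were called lower. The median log2 fold change of the list was -0.17, and any effect of these genes on Ciita was not tested. Irf1, a transcription factor of the Ciita promoter that responds to interferon-gamma, fell from 925 and 649 CPM to 337 and 254 CPM (log2 -1.41 ± 0.24 SE, adjusted p = 0.0261). Socs1, a feedback inhibitor of JAK signalling, fell from 217 and 107 CPM to 35.1 and 28.8 CPM (log2 -2.34 ± 0.34 SE, adjusted p = 0.0191). For both genes all high-fat-diet values lay under all control-diet values. Control-diet mouse 1 had the highest level of both, as it had for Ciita and for 9 of the 12 genes of the list.

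The next genes of that list by p were Irf8 (304 and 293 against 550 and 420 CPM, adjusted p = 0.0617), Jak2 (92.3 and 70 against 284 and 123 CPM, adjusted p = 0.0787) and Jak1 (log2 fold change -0.19, adjusted p = 0.437). The receptor chains Ifngr1 and Ifngr2 had log2 fold changes of -0.03 and -0.05. Irf1 was not called when high-fat-diet mouse 2 was left out, nor Socs1 when mouse 1 or mouse 2 was, in fits that called fewer of all genes. The log2 fold change was then -1.20 for Irf1, and -2.475 and -2.19 for Socs1. Without control-diet mouse 1 the log2 fold change of Socs1 was -1.74.

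None of the factors that bring Ciita to the promoters was called. Of the 7 genes of RFX, NF-Y and CREB, edgeR called 0, with 1 at an unadjusted p below 0.05, against 31.3% of all genes. That 1 was Rfxank (9.03 and 10.5 against 12.9 and 13.9 CPM, adjusted p = 0.159). Rfx5 had 20.1 and 17.8 against 15.4 and 15.4 CPM (adjusted p = 0.265), and Creb1 76.2 and 57.3 against 41.7 and 59.4 CPM (adjusted p = 0.276). Their median log2 fold change was -0.21.

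Of 11 tested genes that process antigen and the invariant chain, edgeR called 0, with 3 at an unadjusted p below 0.05, against 31.3% of all genes. Their log2 fold change was positive for 10 and negative for 1, Ctsc (-0.16), with a median of 0.29. Lgmn, an asparagine endopeptidase of the endosome, had 1371 and 1389 CPM on the high-fat and 593 and 940 CPM on the control diet (log2 fold change 0.85, adjusted p = 0.0752). Ctsl, cathepsin L, had 457 and 469 against 340 and 279 CPM (log2 fold change 0.58, adjusted p = 0.0752), and Ctsb, cathepsin B, 2393 and 2894 against 1507 and 2020 CPM (log2 fold change 0.58, adjusted p = 0.125). In each of these, both high-fat-diet libraries were above both control-diet libraries. Ctss, the cathepsin known for the last cuts of the invariant chain in antigen-presenting cells, had 2412 and 1958 against 1718 and 1761 CPM (log2 fold change 0.33, adjusted p = 0.256).

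Of 9 tested genes of class II turnover and sorting, 1 rose, 0 fell and 8 were not called. Over all tested genes, 2.61% were called higher and 7.91% lower. Cd63, a tetraspanin of the endosomes in which class II is loaded, had 66.1 and 80.6 against 39.8 and 31 CPM (log2 1.05 ± 0.19 SE, adjusted p = 0.0287). It was not called once high-fat-diet mouse 2 was left out (log2 fold change 0.92), in a fit that called fewer of all genes. March1, the ubiquitin ligase that removes class II and Cd86 from the surface, had 129 and 85 against 70.7 and 91.2 CPM (adjusted p = 0.3). Lamp1 and March8 had log2 fold changes of 0.25 (adjusted p = 0.306) and 0.20 (0.448).

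Costimulatory and adhesion genes, which act beside class II at the contact with a T cell, held the most calls of the 7 pathway lists. Of 10 tested, 4 fell, 0 rose and 6 were not called, beside 7.91% of all tested genes called lower and 2.61% higher. Cd80 had 9.51 and 8.5 against 36.3 and 22 CPM, Cd86 82.8 and 73.1 against 157 and 142 CPM, Cd274 (PD-L1) 156 and 175 against 444 and 302 CPM, and Icam1 112 and 90.6 against 282 and 190 CPM. Their log2 fold changes were -1.70, -0.94, -1.17 and -1.23, and their adjusted p 0.0219, 0.0227, 0.0313 and 0.0317. None of the 4 was called when high-fat-diet mouse 1 or mouse 2 was left out, in fits that called fewer of all genes. In the same order their log2 fold changes were -1.76, -1.015, -1.07 and -1.37 without mouse 1. Without mouse 2 they were -1.60, -0.83, -1.24 and -1.06.

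In the same list Pdcd1lg2 (PD-L2) had 3.1 and 3.57 against 58.1 and 7.15 CPM (adjusted p = 0.0685), Icosl 114 and 110 against 90.3 and 92.1 CPM (adjusted p = 0.195), and Cd40 51.5 and 32.1 against 80.1 and 47.2 CPM (adjusted p = 0.245). Most of the distance in Pdcd1lg2 came from control-diet mouse 1. Among 7 ligands and partners of Cd74 and class II, 1 rose and 1 fell, beside 2.61% of all tested genes called higher and 7.91% lower. Cd4, the T cell coreceptor for class II that some myeloid cells carry too, rose from 0.493 and 0.484 CPM to 3.39 and 4.12 CPM (log2 2.93 ± 0.33 SE, adjusted p = 0.0113), and was called without any 1 of the 4 mice (adjusted p from 0.00168 to 0.0432).

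Among the 15 T and NK cell markers, 1 fell (Gzma) and 0 rose. Log2 fold changes were positive for 3 and negative for 12, with a median of -0.35. The 3 positive values were all of T cell genes, Cd3e (0.44), Trac (0.39) and Cd3g (0.27), while Cd3d was at -0.07. The NK cell genes Klrb1c and Ncr1 were at -2.11 and -1.51. Apart from Gzma, no gene of that list was called. The part of T cells in the rise of Cd4 was not tested. Cxcr2, a receptor shared by MIF and neutrophil chemokines, fell from 18.4 and 3.52 CPM to 0.774 and 0.521 CPM (adjusted p = 0.0364). That call ended without high-fat-diet mouse 1 or mouse 2 (log2 fold change -4.37 and -3.80), in fits that called fewer of all genes. The log2 fold change of Cxcr2 was -2.43 without control-diet mouse 1. The cytokine Mif, which binds Cd74, had 160 and 211 against 156 and 134 CPM (adjusted p = 0.249), and Cd44, its coreceptor, 499 and 408 against 736 and 594 CPM (adjusted p = 0.113). Cxcr4, another MIF receptor, had a log2 fold change of 0.17 (adjusted p = 0.642).

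**Figure D5:**
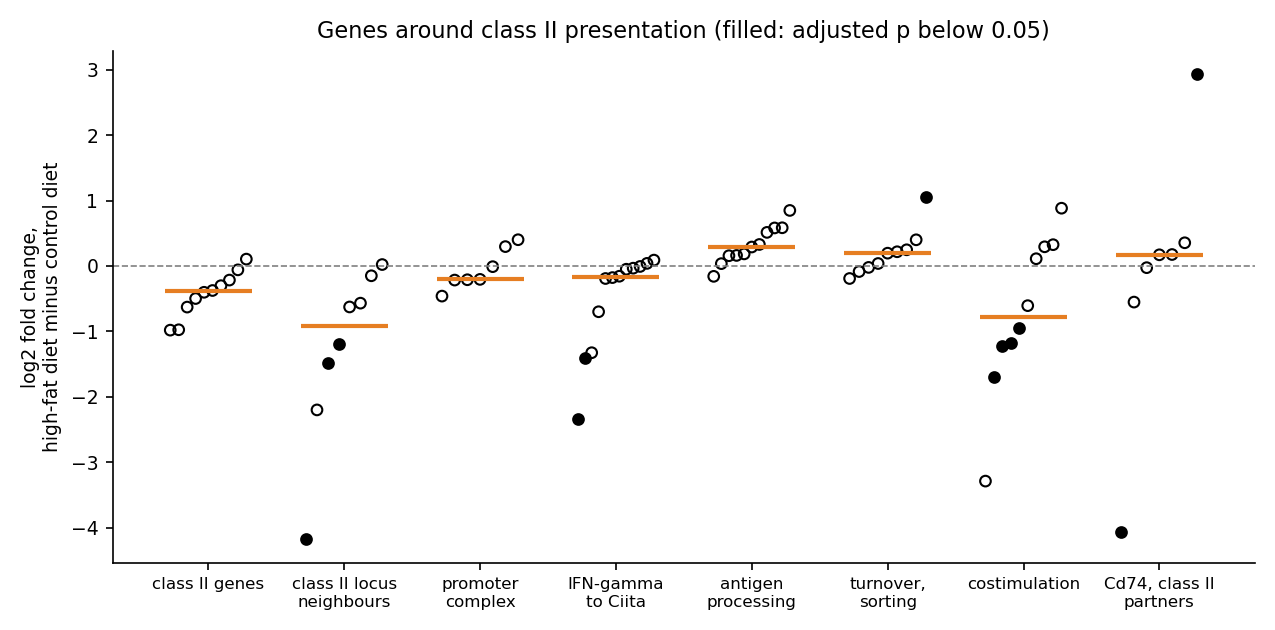
Log2 fold change, high-fat minus control diet, of every tested gene in the class II set and 7 related lists, ordered within each list, with filled points at an adjusted p below 0.05 and an orange bar at the list's median. The class II genes have no filled point and a median of -0.39, antigen processing lies mostly above 0 with a median of 0.29, and costimulation holds 4 filled points, all below 0.

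Class II is also made by dendritic cells and B cells, whose markers were measured beside it. Of 16 dendritic cell markers 2 fell and 0 rose, beside 7.91% of all tested genes called lower and 2.61% higher. Clec9a, a receptor of cross-presenting dendritic cells, had 3.15 and 2.42 against 15.2 and 16.5 CPM (log2 fold change -2.51, adjusted p = 0.00735), and Cd209a 0.187 and 0.156 against 11.3 and 1.24 CPM (adjusted p = 0.0434). Clec9a was called without any 1 of the 4 mice. Cd209a was not called without high-fat-diet mouse 1 or mouse 2 (log2 fold change -5.28 and -5.02), in fits that called fewer of all genes. Its log2 fold change was -2.82 without control-diet mouse 1. Of the 16, 10 were highest in control-diet mouse 1, 2 in control-diet mouse 2 and 4 in a high-fat-diet mouse. Flt3, Zbtb46 and Ccr7 were highest in control-diet mouse 1, at 11.7, 9.19 and 30.1 CPM, and had 1.07 to 8.5 CPM in the other libraries. H2-Ab1, Cd74, Ciita, H2-DMa, H2-DMb1, H2-DMb2 and H2-Oa were highest in that mouse too. This was not particular to dendritic cell markers. Of those tested, 14 of 15 T and NK cell, 9 of 10 neutrophil and 6 of 8 monocyte markers were also highest there. The other marker lists went differently, with 3 of 10 B cell, 6 of 20 macrophage identity, 1 of 12 fibroblast and pericyte and 1 of 8 epithelial markers highest there. The share over all genes was not counted. Xcr1, at 8.28 and 11.4 against 8.01 and 21.5 CPM, and Cadm1, at 123 and 103 against 37.5 and 114 CPM, were lowest in control-diet mouse 1. The summed level of the list was 597 to 663 CPM on the high-fat and 542 to 557 CPM on the control diet, most of it in Bst2, Tcf4, Cadm1 and Fscn1, and no marker was at 0 in all libraries.

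Of 15 B cell markers 10 were tested, 2 fell (Cd79a and Igkc) and 1 rose (Ebf1), beside 7.91% of all tested genes called lower and 2.61% higher. The summed level was 203 to 217 against 127 to 240 CPM, most of it in Ighm. Igkc, the kappa light chain, had 0.0801 and 0.13 against 5.18 and 12.8 CPM (adjusted p = 0.00935), and Cd79a, of the B cell receptor, 0.0267 and 0.0782 against 2.04 and 1.86 CPM (adjusted p = 0.0111). Ebf1, a transcription factor of B cells and of stromal cells, had 7.08 and 6.93 against 2.99 and 2.72 CPM (adjusted p = 0.0284). It was not called without high-fat-diet mouse 1 or mouse 2 (log2 fold change 1.30 and 1.33), in fits that called fewer of all genes. Ms4a1 (CD20), a defining marker, had 4 to 15 counts in a library. The part of dendritic cells or B cells in the class II values was not tested.

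Markers of other cell types were measured too, where 2.61% of all tested genes were called higher and 7.91% lower. Of the macrophage identity list 1 of 20 rose, Mrc1 (summed level 19592 to 20438 against 16854 to 19779 CPM). Monocyte markers had 674 to 1084 against 644 to 1654 CPM with 0 of 8 called, and T and NK cell markers 43.7 to 48.9 against 42.9 to 162 CPM with 1 of 15 lower. Neutrophil markers had 88.7 to 89.7 against 120 to 272 CPM, most of it in Csf3r (80.8 and 83 against 138 and 71.6 CPM), which was not called. Of the 10 tested neutrophil markers 7 were lower, and all 10 had a negative log2 fold change, with a median of -4.05. Epithelial markers had 39.7 to 46.3 against 119 to 158 CPM, most of it in Cdh1 except in control-diet mouse 2 (7 of 8 tested lower). Fibroblast and pericyte markers had 2092 to 2099 against 786 to 1054 CPM, most of it in Col3a1 (7 of 12 higher). The highest monocyte, T and NK cell and neutrophil sums were in control-diet mouse 1. So was the epithelial sum through Cdh1 (144 against 57 CPM in control-diet mouse 2), while the other 7 tested epithelial markers were higher in control-diet mouse 2, as Epcam was (2.9 against 11.7 CPM). The part of these cells in the results above was not tested.

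By profile over the 4 libraries, the genes most like the mean of the 10 were Slc30a1, Birc3, Ifi35, Psmb10 and Pml. The search covered 6028 other genes whose mean level was 5 or more on the log2 CPM scale. The root mean square distance of their centred log2 CPM from the class II mean was 0.0212, 0.0217, 0.0367, 0.0387 and 0.0417. Psmb10 had 246 and 196 against 324 and 248 CPM, the same order of libraries as Cd74. With 4 libraries, such likeness is a description only.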

How the data were processed

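Per the labels' protocols, a stranded kit was used on polyA RNA of the sorted cells of 4 mice. The authors' deposited table gives raw counts, 1 column per mouse. BWA 0.7.12 (an aligner), cutadapt 1.15, DESeq2 1.24.0 and FastQC 0.11.5 are listed in the submitters' processing notes, beside GRCm38 and mm10. Counting program, strand setting and annotation release: not given in the sources used here.

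Symbols were matched for 53274 of 53379 identifiers. Positions and lengths came from GENCODE mouse release 21 (GRCm38), which holds another version of each of the 10 gene models than the table. Genes passing filterByExpr (minimum count 10, minimum total 15) entered edgeR 4.0.16 under R 4.3.3 (TMM, robust glmQLFit and glmQLFTest, diet as the only term) with Benjamini-Hochberg adjustment. The edgeR step was run on simulated data with less spread between libraries than these data show. That run checks the code and gives no error rate for these data. Alternatives used DESeq2 1.42.0 and limma 3.58.1. Each title names a mouse; p-values measure the spread between these mice. Intervals on counts cover counting error only.

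The 10 genes and all lists were chosen with earlier results of these data known. Named were the 10 genes, and from each pathway list every called gene and up to 3 more of smallest p. Of the marker lists, dendritic and B cell genes are named and the others given mainly as counts and sums. Ctss, the interferon-gamma receptor chains, Ctsc and Psmb10's levels were added after their values were seen. So were Cd3d, Cd3e, Cd3g, Trac, Klrb1c and Ncr1. The rule for marker lists was every called gene and up to 3 of highest mean CPM. Flt3, Zbtb46, Ccr7, Xcr1, Cadm1 and Ms4a1 were named outside that rule. Some items are not reported here.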

Additional observations from a re-analysis of the deposited data

How the results depend on the processing

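With 2 mice per diet, a diet difference in the class II genes could go uncalled, and no detection limit was computed. Ciita was not called by the main fit at a log2 fold change of -0.97, beside log2 ratios between mice of 0.57 on the high-fat and 0.59 on the control diet. The count of class II genes called, 0 with all libraries, was 1 with scaling on macrophage genes, with no filter and with DESeq2, and 0 to 4 when a mouse was left out. Of 119 alternative values of single class II genes, 103 kept their direction and side of the threshold, 8 passed the threshold and 8 changed sign. The sign changes on the log2 scale were H2-Aa to -0.037 with scaling on macrophage genes and H2-Eb1 to 0.011 on total counts. When a mouse was left out, H2-Aa ran from -0.106 to 0.323, H2-Eb1 from -0.251 to 0.145, H2-DMb1 from -0.443 to 0.015 and H2-Oa from -1.573 to 0.038. Scaling on macrophage genes moved the median of all genes from 0.005 to -0.129, and relative to that H2-Aa stayed above it. The median of the class II genes ran from -0.47 to -0.14 when a mouse was left out. The ratio of DM to classical counts, 0.888, was 0.913 per kb of exon.

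Over all genes, 480 higher and 1457 lower calls became 1552 and 2231 with no filter, 1075 higher with DESeq2, and 71 to 1934 higher and 300 to 2534 lower when a mouse was left out. Calls in the pathway lists, 2 higher and 10 lower, became 5 higher with no filter, 4 higher with DESeq2, and 1 to 6 higher and 0 to 18 lower without a mouse. Calls in the marker lists, 9 higher and 19 lower, became 14 higher with DESeq2, 9 lower with voom, and 5 to 19 higher and 5 to 39 lower without a mouse. A fit without a mouse takes that diet's spread from the other diet's pair. The cause of these moves was not tested. The labels do not pair the mice by number, and deviations of same-numbered libraries correlated at -0.196 over 10214 genes. With the mouse number as a replicate block, 567 genes were higher and 1481 lower, and 1 class II gene was called.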
